A study of Mus musculus with 8 samples.

Results

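The subject is the part of mouse chromosome 16 from 40 Mb to its far end, in H3K27me3 chromatin immunoprecipitation data from 3T3 cells, an immortalised mouse fibroblast line. Its members are the regions of the authors' deposited table that lie on chromosome 16 with a start at or beyond 40 Mb (build GRCm38). They were 3550 of the 265968 regions in the table. The segment was chosen because most of its regions lean the same way between the sets of libraries compared here, so the direction of that lean is a description and no test of it is given. What follows describes how the lean is spread over windows, single regions and genes, and where it turns.

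Cells carried either a control construct or an NNMT overexpression construct. NNMT (nicotinamide N-methyltransferase) is an enzyme that uses S-adenosylmethionine, the methyl donor also used by histone methyltransferases. Growth lasted 48 h in both groups, with methionine at 10 µM and 10% serum (dialyzed), and chromatin fixed in 1% formaldehyde was cut with micrococcal nuclease. Each group had 3 immunoprecipitated libraries, named as biological replicates in the labels, and 1 input library. The labels do not say whether the cells of a group came from 1 clone or several, nor which promoter drives the construct.

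For each region the deposited table lists 3 values, called set 1 here, followed by 3 more, called set 2. No source used here states which set is NNMT, or which library of a set comes first. Directions are therefore given as set 1 or set 2 and tied to neither construct. The values are whole numbers with the look of rescaled and rounded read counts, and the depth behind them is unknown. The input libraries were not analysed here, so the amount of DNA from the segment in each set is unknown. A log2 ratio below is always set 1 over set 2, so a negative ratio means higher values in set 2. Its error is the lowest and highest ratio when each of the set 1 libraries is paired with each of the set 2 libraries, 9 pairs in all. Separated means that the 3 values of one set, for a region, gene or window, all lie above the 3 of the other. Being absent from the table does not show that a stretch lacks the mark, since the list holds selected regions only.

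H3K27me3 is trimethylation of lysine on histone H3, deposited by Polycomb repressive complex PRC2 through EZH2 or EZH1. It lies over genes that are kept silent in a cell type, often as broad domains over CpG-rich starts of developmental regulators and as lower, wider cover over silent gene bodies. The far part of the segment matches much of the human chromosome that is present in an extra copy in Down syndrome, and the segment holds many genes of neurons that fibroblasts do not normally use.

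The starts of 4 genes under listed regions show the kinds of sequence concerned. The letters are RefSeq promoters of build GRCm38.p6, from 250 bases before the annotated start to 50 after it, printed 5′ to 3′ on the strand of the gene, with each CG in capitals. The first belongs to Olig2 (chr16:91225300-91225599, plus strand), a regulator of motor neuron and oligodendrocyte fate, and the second to a start of B3galt5 (chr16:96280782-96281081, plus strand), a galactosyltransferase. Both lay under regions that were higher in set 2.
Olig2: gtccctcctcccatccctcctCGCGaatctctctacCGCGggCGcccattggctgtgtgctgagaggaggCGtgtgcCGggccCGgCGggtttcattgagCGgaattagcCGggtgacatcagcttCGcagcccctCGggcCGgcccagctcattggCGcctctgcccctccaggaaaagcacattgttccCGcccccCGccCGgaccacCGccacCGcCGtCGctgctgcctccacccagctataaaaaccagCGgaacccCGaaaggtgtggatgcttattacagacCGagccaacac
B3galt5: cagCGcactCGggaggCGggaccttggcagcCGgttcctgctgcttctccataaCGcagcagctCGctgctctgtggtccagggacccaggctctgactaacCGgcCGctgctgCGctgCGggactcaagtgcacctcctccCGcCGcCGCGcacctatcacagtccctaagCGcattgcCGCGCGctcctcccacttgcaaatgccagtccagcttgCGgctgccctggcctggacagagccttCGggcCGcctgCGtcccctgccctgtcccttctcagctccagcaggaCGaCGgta
The next belongs to Adgrg7 (chr16:56795809-56796108, minus strand), an adhesion G protein-coupled receptor, and was also under a region higher in set 2. The last is a start of Kcne2 (chr16:92295366-92295665, plus strand), a potassium channel subunit, and was under a region higher in set 1.
Adgrg7: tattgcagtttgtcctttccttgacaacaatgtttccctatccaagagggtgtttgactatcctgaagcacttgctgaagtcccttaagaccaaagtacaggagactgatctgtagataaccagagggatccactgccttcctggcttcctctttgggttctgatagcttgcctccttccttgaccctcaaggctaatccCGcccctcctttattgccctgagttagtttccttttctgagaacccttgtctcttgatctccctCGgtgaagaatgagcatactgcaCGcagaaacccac
Kcne2: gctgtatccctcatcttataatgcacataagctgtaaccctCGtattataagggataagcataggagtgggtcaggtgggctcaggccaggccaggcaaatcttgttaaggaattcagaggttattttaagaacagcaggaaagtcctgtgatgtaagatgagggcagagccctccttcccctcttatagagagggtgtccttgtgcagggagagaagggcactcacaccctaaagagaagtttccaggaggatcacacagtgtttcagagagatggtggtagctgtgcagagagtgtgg
The Olig2 window holds 25 CG and the B3galt5 window 24, and 18.4% and 19.98% of all 32851 RefSeq promoter windows of this length hold at least as many. Adgrg7 holds 3 and Kcne2 holds 1, and 76.7% and 94.6% of windows hold at least as many. A CG reads the same on both strands, so 1 strand was searched.

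Values at these starts come from the authors' deposited table. Over the Olig2 start, the region read 1176, 1251 and 1065 in set 1 and 1536, 1838 and 1680 in set 2. That over the B3galt5 start read 1041, 1006 and 925 against 1554, 1511 and 1405. At Adgrg7 the values were 455, 377 and 375 against 745, 743 and 820. In each of these every set 2 library was above every set 1 library. At Kcne2 the order was the opposite, with 385, 327 and 387 against 230, 218 and 255. These starts are picked examples, and at others, such as those of Slc9c1 and Itgb2l, the sets overlapped. Whether separation goes with CG content was not tested. In all, 18 promoter windows of 13 genes lay under a region of the segment, of 255 windows of 217 matched genes. Their median was 6 CG, against 13 for all windows of the segment's genes and 7 for all promoters, and 11.1% of them held 20 or more, against 39.2% and 26.5%.

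Of the 3550 regions, 3080 (86.8%, 95% Wilson interval 85.6 to 87.8) were higher in set 2, where the table as a whole has 40.5%. The Wilson interval covers counting error only and treats neighbouring regions as independent, which they are not. The other 470 were higher in set 1. Separated regions numbered 2236 higher in set 2 (63.0%, against 24.7% in the whole table) and 294 higher in set 1 (8.28%, against 40.5%), and in 1020 the libraries overlapped. A log2 ratio of -1 or less was found in 1658 regions (46.7%, against 12.9%) and one of 1 or more in 171 (4.82%, against 22.3%). These shares were what the segment was chosen on, so nothing further is read from them. Across 20 chromosomes other than Y, chromosome 16 as a whole had the highest share of regions higher in set 2 (66.4%), followed by chromosome 8 (59.2%). The share of chromosome 16 includes the chosen segment, and over its regions below 40 Mb it was 55.4%.

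Summed over the segment, the set 1 libraries read 278759, 281648 and 263147 and the set 2 libraries 423518, 445623 and 422945. The log2 ratio was -0.65 (-0.76 to -0.59 over library pairs), which is 1.57-fold higher in set 2. Every set 2 sum lay above every set 1 sum. The same ratio was -0.03 (-0.12 to 0.02) over the 6526 regions of chromosome 16 below 40 Mb and 0.20 (0.12 to 0.25) over the 253897 regions of the other autosomes. Over all listed regions it was 0.19, so scaling the libraries to equal sums moves every ratio here further toward set 2 by about that amount. Across the regions of the segment, the log2 values correlated at 0.880 to 0.925 between libraries of the same set and at 0.798 to 0.827 between libraries of different sets. These are correlations across regions, which are not independent replicates. They use the values that the segment was chosen on, so the gap between the 2 ranges is no test of a difference between the sets.

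The lower edge at 40 Mb is a round number and not a point where the data turn. The nearest regions below it were 250 bp with 24, 19 and 11 against 32, 37 and 61, and 50 bp with 2, 0 and 0 against 10, 11 and 11. The nearest above it were 2 regions of 50 bp in Lsamp, with 2, 2 and 0 against 4, 17 and 6 and with 0, 3 and 1 against 9, 11 and 9. All 4 leaned to set 2, and so did 559 of the 598 regions (93.5%) between 36 and 40 Mb.

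The 3550 regions covered 2.159 Mb, of which 89.5% was in regions higher in set 2. Their median length was 350 bp (range 50 to 12500), against 450 bp in the whole table. The share higher in set 2 was 88.7% among 1032 regions of up to 200 bp, 84.0% from there to 500 bp, 85.5% to 1000 bp and 97.7% among the 86 regions over 3000 bp. Long regions had smaller ratios. The median log2 ratio was -1.47 in the shortest class and -0.65 in the longest, where all 86 were separated. The short class has low values, with a median of 69 summed over 6 libraries, against 4868 in the longest. Values by length are not given for the whole table, so the pattern is not shown to be particular to the segment.

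The 58 windows of 1 Mb in the segment fell into 41 with regions and 17 without. Of the 41, 7 had fewer than 5 regions, and the other 34 are described. Their log2 ratio ran from -1.84 to 0.22, with a median of -0.87, where the median of the 1914 such windows of the whole table was 0.16. Summed values were higher in set 2 in 32 of the 34 (39.6% of windows in the whole table) and in set 1 in the remaining 2 (60.4%). All 34 were separated, where the whole table has 34.2% separated toward set 2 and 53.8% toward set 1. Of the 34, 14 held no region against the lean, and these ranged from 5 regions to 591. That count was not made over the whole table, so it is not shown to be particular to the segment.

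**Figure D1:**
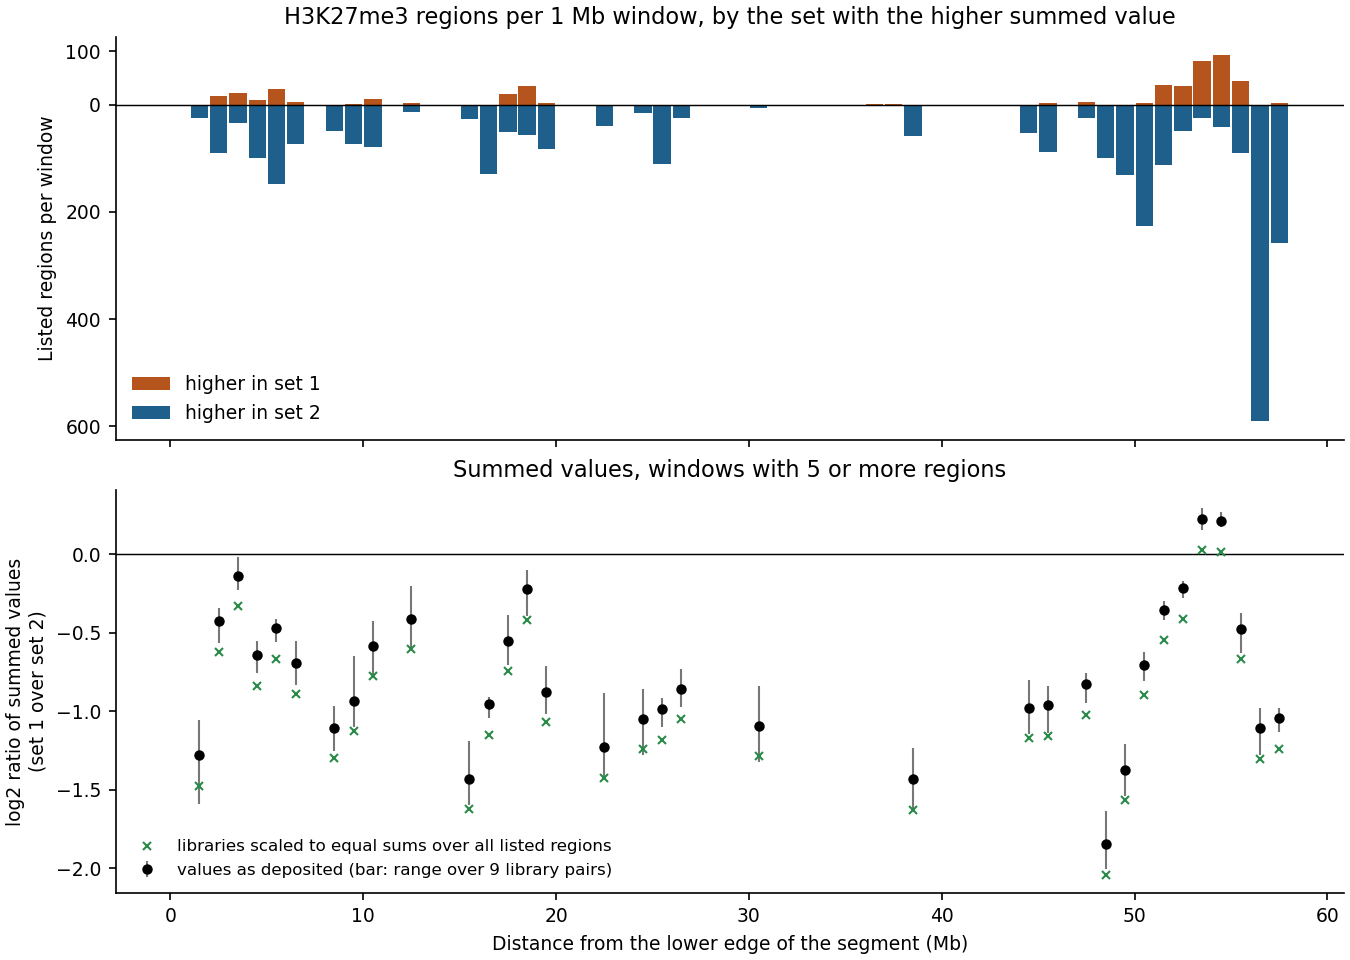
Listed regions per 1 Mb window (upper panel, bars up for regions higher in set 1 and down for those higher in set 2) and log2 ratio of summed values in windows with 5 or more regions (lower panel, points with the range over 9 library pairs, crosses after scaling libraries to equal sums), against distance from the lower edge of the segment. The tallest bar is the window 56 Mb from the edge, with 591 regions all higher in set 2, and the 2 points above 0 are the windows 53 and 54 Mb from it.

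The window from 96 to 97 Mb held the most regions, 591, and all of them were higher in set 2. Its library sums were 36332, 34346 and 32586 (set 1) against 71763, 78902 and 71981 (set 2), a log2 ratio of -1.11 (-1.28 to -0.98). The next window, 97 to 98 Mb, had 258 of 262 regions higher in set 2 and a log2 ratio of -1.04 (-1.13 to -0.98). The windows hold Dscam, Pcp4, Igsf5, B3galt5, Itgb2l, Bace2 and Tmprss2. They are the end of the chromosome as far as regions were listed, and 826 regions followed one another there without a single exception, from 96140501 to 97699500 (1.56 Mb, 23.3% of all members). Without these windows, left out after the values were seen, 82.7% of the remaining 2697 regions were higher in set 2 and the log2 ratio was -0.52.

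The lowest ratio was in the window from 88 to 89 Mb, around Grik1. It held 100 regions, all higher in set 2, with library sums of 1282, 1098 and 1058 against 4104, 4253 and 3989, a log2 ratio of -1.84 (-2.01 to -1.64). Windows 78 to 79 Mb (59 regions, log2 -1.43) and 55 to 56 Mb (27 regions, log2 -1.43) followed, also with no exception. Regions in these windows were short, with median lengths of 100, 250 and 150 bp in the order named, against 350 bp in the segment. Their median summed values were 69, 169 and 103, against 288. Long regions had smaller ratios across the segment, and whether length accounts for this ranking was not tested. The window from 90 to 91 Mb, which holds Hunk, had 227 of 231 regions higher in set 2 and a smaller ratio of -0.70 (-0.81 to -0.62).

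Windows 93 to 94 Mb and 94 to 95 Mb went against the lean. In the first, 81 of 105 regions were higher in set 1, with sums of 14577, 14905 and 14237 against 12173, 12779 and 12523 and a log2 ratio of 0.22 (0.16 to 0.29). In the second, 93 of 134 regions were higher in set 1, with sums of 12739, 13335 and 12822 against 11251, 11303 and 11057 and a log2 ratio of 0.21 (0.17 to 0.27). The sets did not overlap in either, but both ratios fell to near 0 (0.03 and 0.02) once libraries were scaled to equal sums over all listed regions. The next highest window, 43 to 44 Mb, had a ratio of -0.14 (-0.23 to -0.02).

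The 470 regions that went against the lean were not spread evenly. Stretches marked off after the values were seen, held 425 of them (90.4%), namely 42 to 46 Mb with 79 of 448 regions, 57 to 59 Mb with 56 of 162, and 91 to 96 Mb with 290 of 604. The remaining 47 Mb held 2336 regions and 45 exceptions. From 59 to 91 Mb, 18 of 988 regions were exceptions, and from 96 Mb on, 4 of 853. Without 91 to 96 Mb, 93.9% of regions were higher in set 2 and the log2 ratio of the segment was -0.83.

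The exceptions also followed one another. They fell into 157 runs, 104 of them single regions. Another 37 runs of 3 or more held 334 of the 470 (71.1%), of which 12 runs of 10 or more held 218. Runs and exceptions were picked because set 1 was higher, so the direction of their sums was fixed by that choice and only their size is described. Over all 470 exceptions the sums were 42425, 43958 and 41977 (set 1) against 25906, 27225 and 26509 (set 2), 1.61-fold higher in set 1. The exceptions had the same median length as the other members, 350 bp, and a similar median summed value, 313 against 286. Scaling the libraries to equal sums, a log2 shift of 0.19, left 469 of them on the set 1 side. The list holds selected regions and may leave out ratios that small, so this count is no test of the exceptions.

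The run with most regions, 40, lay from 94091051 to 94321100 over Sim2 and Hlcs. Its library sums were 3488, 3572 and 3632 (set 1) against 1808, 1937 and 1748 (set 2), 1.95-fold higher in set 1. The next, 38 regions from 93062301 to 93562000, touched no named gene and read 3344, 3411 and 3186 against 1665, 1753 and 1503. A run of 18 regions from 58122651 to 58230300, again outside named genes, read 1424, 1419 and 1213 against 720, 703 and 591. A run of 15 from 91350051 to 91446200 spanned Ifnar2 and Il10rb, receptor chains for interferon and interleukin signalling, and read 796, 836 and 813 against 429, 415 and 428. Neither receptor gene carried a region itself within 2 kb. Another run of 15, from 92507301 to 92771900, took in Clic6 and Runx1 and read 1065, 1084 and 1095 against 630, 606 and 590.

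Finer windows against the lean marked parts of some of these stretches, and none lay from 42 to 46 Mb. Among windows of 0.5 Mb with 5 or more regions, 7 had more regions higher in set 1 than in set 2. They lay at 57.5 and 58 Mb (19 of 22 and 35 of 44 regions), at 92.5, 93, 93.5 and 94 Mb (15 of 15, 32 of 33, 49 of 72 and 85 of 96) and at 95.5 Mb (36 of 65). Their log2 ratio was highest at 93 Mb, 1.02 (0.84 to 1.22). The window at 93.5 Mb, which holds most of Cldn14, had a ratio of 0.07 that became -0.12 after scaling. That at 95.5 Mb had most regions on the set 1 side but a summed ratio of -0.36, since its long Erg regions were higher in set 2.

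The stretch around Sim2 shows both kinds of region side by side. Sim2 (gene 20465, chr16:94085104-94127032) encodes a basic helix-loop-helix transcription factor of midline and forebrain development. In the 200 kb below the lower end of its span and the 300 kb above it lay 146 regions. Of these, 122 were higher in set 1 and 24 in set 2, where the whole table has 59.5% higher in set 1. Separated regions numbered 93 toward set 1 and 11 toward set 2, where the whole table has 40.5% and 24.7%. Sim2 is named here for its large ratio toward set 1, so the direction around it is only described. Over the 33 regions of Sim2 the library sums were 3941, 4027 and 4021 (set 1) against 2179, 2430 and 2287 (set 2), a log2 ratio of 0.80 (0.70 to 0.89), and 32 of the 33 regions were higher in set 1. The sets did not overlap. In the authors' deposited table its longest region (94091051 to 94097950, 6.9 kb) read 1797, 1694 and 1603 against 1257, 1255 and 1123, 1.40-fold higher in set 1. Short regions further into the gene differed more, such as 350 bp at 94114051 with 86, 60 and 82 against 6, 0 and 0, and 300 bp at 94108551 with 65, 54 and 58 against 16, 0 and 10. Their set 2 values were at or close to 0.

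**Figure D2:**
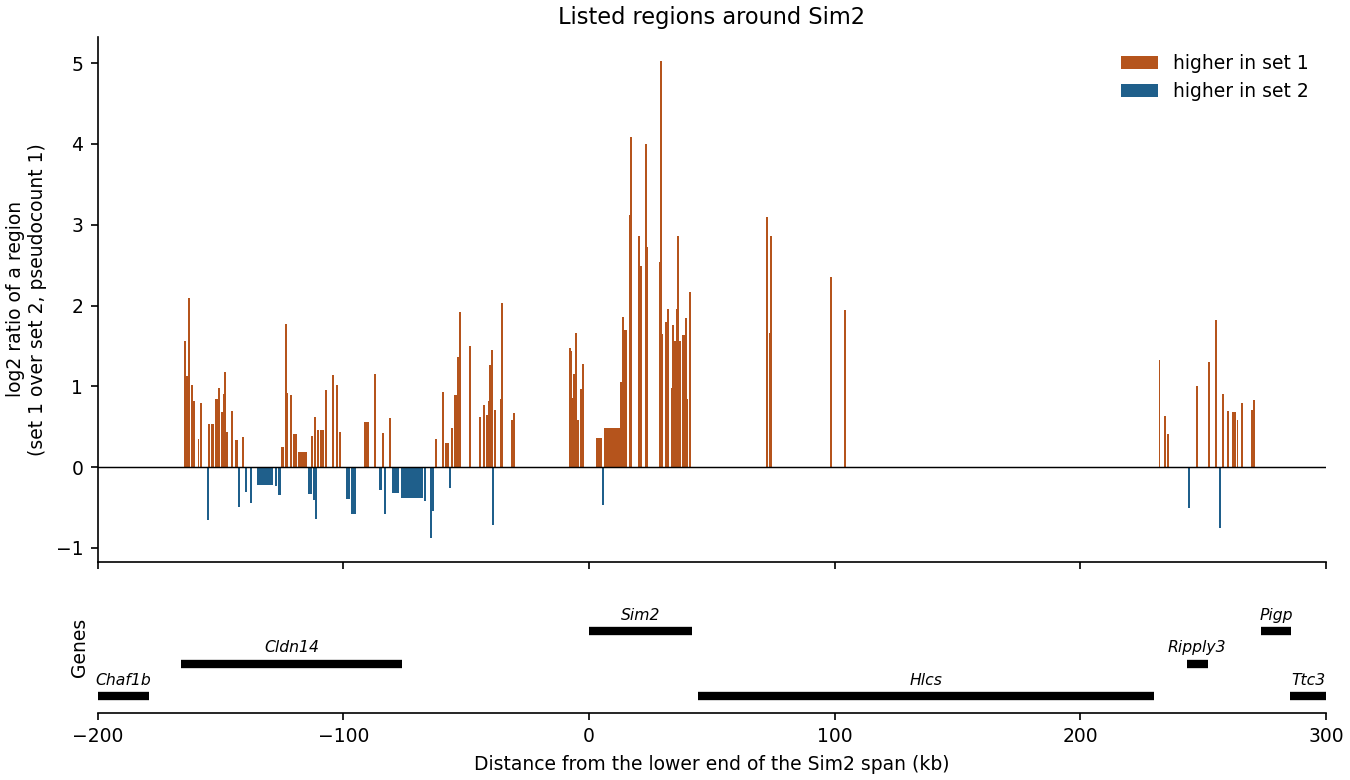
Log2 ratio (set 1 over set 2, pseudocount 1) of each listed region around Sim2, as a bar drawn at its place with a least width of 0.8 kb, against distance in kb from the lower end of the Sim2 span, with gene spans below. Bars over Sim2 and Hlcs point up with 1 exception, while Cldn14 carries 39 regions higher in set 1 and 16, among them the longest, higher in set 2.

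Cldn14 (gene 56173, chr16:93919031-94008837), a claudin of tight junctions, carried regions of both directions. Its 55 regions summed to 12592, 13068 and 12499 in set 1 and 12672, 13022 and 12625 in set 2, so as deposited the sets overlapped and the log2 ratio was -0.01 (-0.06 to 0.05). After scaling to equal sums over all listed regions the ratio was -0.20 and every set 2 sum lay above every set 1 sum. As deposited, set 1 was higher at 39 of the regions and set 2 at 16. The 9.25 kb region at 94008451, over the start of the gene, read 1750, 1879 and 1867 against 2543, 2444 and 2199, 1.31-fold higher in set 2. The 6.6 kb region at 93949901 was also higher in set 2 (1649, 1796 and 1556 against 2007, 1992 and 1829). A 3.8 kb region at 93966451 between them leaned the other way, with 861, 895 and 865 against 751, 763 and 783. All 3 regions were separated.

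Of 259 named genes that reach into the segment, 62 carried a region within 2 kb of their span. Summed values were higher in set 2 in 50 of them (30.2% of genes with a region in the whole table) and higher in set 1 in 12 (69.7%). Library sums were separated toward set 2 in 43 (22.0%) and toward set 1 in 9 (59.7%), and overlapped in 10. In 36 genes every region was higher in set 2, in 7 every region was higher in set 1, and 19 carried both. These counts were not made over the whole table, and a gene with a single region cannot carry both. Nothing is read from them about the genes. Among the 41 genes with 5 or more regions, 36 had higher sums in set 2 (31.8% in the whole table) and 5 in set 1 (68.2%). The median log2 ratio over the 62 was -0.68, against 0.38 over the 6546 genes of the whole table. Of the regions themselves, 1578 (44.5%) lay inside a named gene, and 89.5% of these were higher in set 2. The share was 81.4% of the 312 within 10 kb of one, 87.1% of the 1280 at 10 to 100 kb and 78.7% of the 380 further away, with no steady order by distance.

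**Figure D3:**
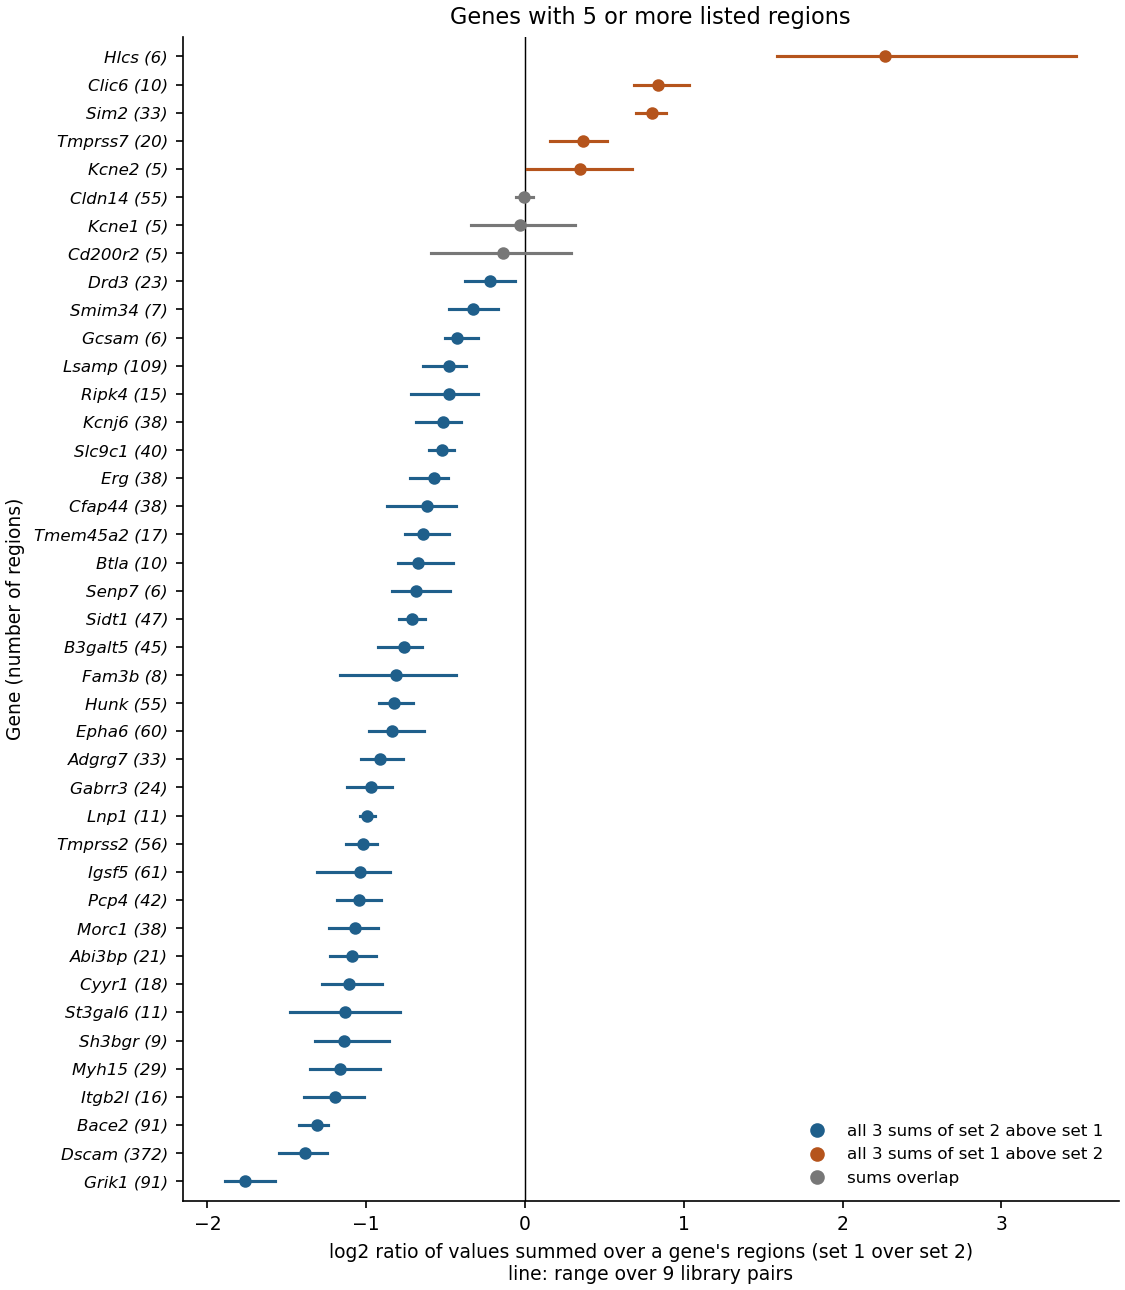
Log2 ratio of summed values (set 1 over set 2; points, with lines for the range over 9 library pairs) for the 41 genes with 5 or more regions, ordered by ratio, with the number of regions in brackets. Grik1 is lowest at -1.77, 5 genes from Kcne2 to Hlcs lie above 0, and Cldn14 sits at 0 on the values as deposited.

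Neuronal adhesion and axon guidance is the list that holds Dscam, the gene with most regions. Of 15 on the list, 5 carried regions, where 23.9% of all 259 genes did. Of the 5, 4 were higher in set 2, close to the 80.6% of all 62 genes with a region. The median log2 ratio was -0.54 (-0.68 over all 62 genes). With the span alone Lsamp, Epha6 and Dscam were left, all higher in set 2, with a median of -0.84. Dscam (gene 13508, chr16:96587452-97171113), a cell adhesion molecule of neurite self-avoidance, carried 372 regions over 160 kb, and all 372 were higher in set 2. Its sums were 12596, 11836 and 11068 against 29929, 32430 and 30350, a log2 ratio of -1.38 (-1.55 to -1.25). Its region with the highest value, 4.5 kb at 96724101, read 385, 328 and 392 against 1105, 1155 and 919. The sets did not overlap in either. Lsamp, an adhesion protein of limbic neurons whose span starts just below 40 Mb, carried 109 regions, 96 higher in set 2, and read 7820, 7897 and 7319 against 10432, 11441 and 10207 (log2 -0.48, -0.64 to -0.37). Epha6, an ephrin receptor, carried 60 regions, 57 higher in set 2, and read 2655, 2410 and 2331 against 4471, 4607 and 4123 (log2 -0.84). A 350 bp region in it at 59810901 read 9, 0 and 6 against 87, 87 and 58. Gap43, a growth cone protein, had 2 regions (log2 -0.54, -0.96 to -0.03). Nectin3, an adhesion molecule, had 1 region in each direction with overlapping sums (log2 0.03, which became -0.16 after scaling). For both genes the regions lay within 2 kb of the span but not over it. The other 10, among them the axon guidance receptors Robo1 and Robo2 and the adhesion molecules Cadm2, Ncam2 and Alcam, carried none.

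Ion channels, receptors and signalling genes of neurons carried regions in 8 of 13, where 62 of all 259 genes (23.9%) did. Of the 8, 7 were higher in set 2 (6 with the span alone), near the 80.6% of all 62 genes, with a median log2 ratio of -0.69. Grik1 (gene 14805, chr16:87895901-88290863), a kainate receptor subunit, had the lowest ratio of all genes with 5 or more regions. Its 91 regions, all higher in set 2, summed to 1327, 1135 and 1137 against 4091, 4199 and 3946, a log2 ratio of -1.77 (-1.89 to -1.57), or 3.40-fold. Its highest region, 2.75 kb at 88284301 near the upper end of the gene, read 164, 101 and 94 against 594, 692 and 586. Every set 2 library was at least 3.57-fold above every set 1 library there. Bace2, a protease related to the beta-secretase, carried 91 regions over 58.5 kb, all higher in set 2, with 4766, 4817 and 4397 against 11503, 11794 and 11378 (log2 -1.31, -1.42 to -1.24). Pcp4, a calmodulin regulator of Purkinje cells, was covered over 80.3% of its span and read 5660, 5290 and 5207 against 10931, 11824 and 10616 (log2 -1.05). Kcnj6, a G protein-gated potassium channel, was mixed, with 30 of 38 regions higher in set 2 and a log2 ratio of -0.51 (-0.68 to -0.40). Drd3, a dopamine receptor, was mixed too, with 15 of 23 and a ratio of -0.22 (-0.38 to -0.06).

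Of the 2 small potassium channel subunits on the list, Kcne2 was higher in set 1. Kcne1 counts as higher in set 2 above, but only by a small difference. Kcne2 read 564, 493 and 572 in set 1 and 433, 358 and 489 in set 2, a log2 ratio of 0.35 (0.01 to 0.68) that was 0.15 after scaling, with sets that then overlapped. Kcne1 read 335, 358 and 315 against 342, 399 and 288, with sets that overlapped (log2 -0.03, -0.34 to 0.31). Htr1f, a serotonin receptor, had a single region whose sets overlapped (16, 77 and 54 against 110, 87 and 71) as deposited, though not after scaling. App, Tiam1, Synj1, Itsn1 and Kcnj15 carried none.

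Transcription regulators were split. Of 16 on the list, 6 carried regions, where 23.9% of all 259 genes did. Sums were higher in set 2 in 3 (Olig2, Olig1 and Erg) and in set 1 in 3 (Sim2, Runx1 and Ripply3). Of all 62 genes with a region, 80.6% were higher in set 2. The median log2 ratio of the list was -0.06. With the span alone the split was 3 against 2 and the median -0.20, and with 5 kb 3 against 3 and -0.13. Olig2 and its neighbour Olig1, another regulator of oligodendrocytes, had small ratios and tight replicates. Olig2 read 4307, 4422 and 4355 against 5530, 6124 and 5662 (log2 -0.40, -0.51 to -0.32) and Olig1 2085, 2121 and 2021 against 2625, 2704 and 2704 (log2 -0.37, -0.42 to -0.31). The region with the highest value in the segment, 11.55 kb at 91227501 over Olig2, read 3131, 3171 and 3290 against 3994, 4286 and 3982. The longest, 12.5 kb at 91318951, lay outside named genes and read 2687, 2641 and 2678 against 3827, 3671 and 3635. In both the sets were separated, with log2 ratios of -0.35 and -0.48. The median was -0.65 among the 86 regions over 3000 bp and -0.95 among all regions of the segment.

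Erg, an ETS factor of endothelium and blood, carried 38 regions, 29 higher in set 2, and read 10106, 10074 and 9102 against 14351, 15023 and 14113 (log2 -0.57, -0.72 to -0.48). Its 2 long regions, 10.55 kb at 95531051 and 10.35 kb at 95517051, were 1.58-fold and 1.56-fold higher in set 2. Runx1, a regulator of blood formation, had 2 regions, both higher in set 1, with low sums of 155, 158 and 174 against 86, 96 and 121 (log2 0.68, 0.36 to 1.02). Ripply3, a transcriptional corepressor of pharyngeal development, had 3 regions and overlapping sets (163, 180 and 98 against 79, 101 and 189). The other 10, including the zinc finger gene Zbtb20 and the ETS genes Ets2 and Gabpa, carried none.

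**Figure D4:**
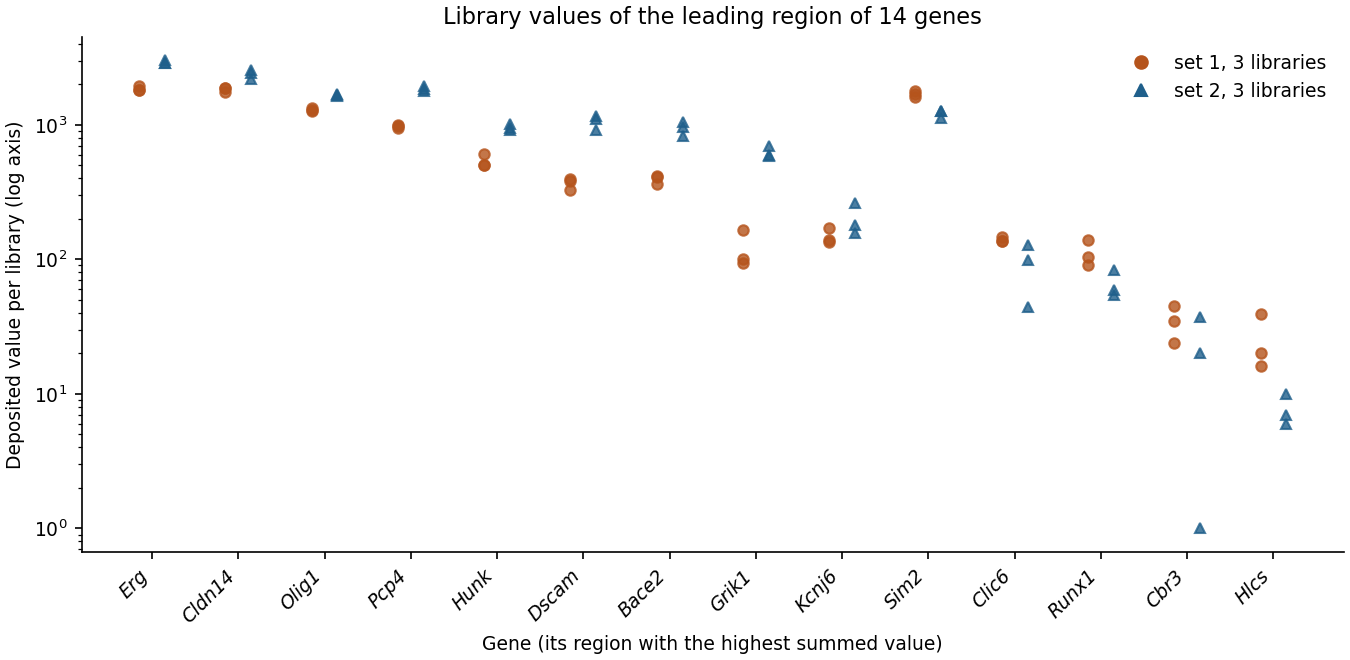
Deposited value in each library (log axis) for the region with the highest summed value of each of 14 genes, set 1 as circles and set 2 as triangles. Set 2 lies above set 1 in the genes from Erg to Grik1 and below it in Sim2, Clic6, Runx1 and Hlcs, while the sets overlap in Kcnj6 and Cbr3.

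Of 33 genes in the segment listed as housekeeping and chromatin genes, 4 carried regions, where 23.9% of all 259 genes did. Of the 4, 2 had higher sums in set 2 (80.6% of all 62 genes with a region) and 2 in set 1. The median log2 ratio was 0.08. That split and sign hold at the flank of 2 kb, since the median was -0.68 with the span alone (2 against 1) and -0.60 with 5 kb (5 against 3). Hunk, a protein kinase that the name of the list does not describe, carried 55 regions, all higher in set 2. It read 4255, 4146 and 3940 against 6928, 7463 and 7446 (log2 -0.82, -0.92 to -0.70). Senp7, a SUMO protease, was also higher in set 2 (log2 -0.68, -0.84 to -0.47). Hlcs, the enzyme that attaches biotin to carboxylases, had the highest ratio of genes with 5 or more regions, 2.26 (1.58 to 3.47), on sums of only 93, 122 and 107 against 31, 25 and 11. Its 6 regions cover 0.6 kb. Cbr3, a carbonyl reductase, had 1 region whose sets overlapped (24, 45 and 35 against 20, 37 and 1). The other 29, such as Sod1, Cct8, Gart, Son and Dyrk1a, carried none.

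The remaining lists held few carriers. Among 17 immune receptor and interferon response genes, 3 carried regions and all 3 had higher sums in set 2, as had 50 of all 62 genes, with a median log2 ratio of -0.67. Btla, an inhibitory lymphocyte receptor, read 633, 633 and 641 against 1057, 1101 and 878 (log2 -0.67, -0.80 to -0.45), and the sets did not overlap. Cd96, a receptor of T and NK cells, read 108, 139 and 154 against 202, 210 and 232 (log2 -0.68), while Cd200r2, a receptor of myeloid cells, read 167, 151 and 193 against 177, 228 and 158 and overlapped. The 4 interferon and interleukin receptor genes Ifnar1, Ifnar2, Ifngr2 and Il10rb carried none.

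The list named matrix and matrix-remodelling genes was drawn broadly and takes in membrane proteases such as Tmprss2. Regions were carried by 3 of its 11 genes, where 23.9% of all 259 genes had one. Its median log2 ratio of -1.02 is the value of Tmprss2 (-0.68 over all 62 genes with a region). Tmprss2, a transmembrane serine protease of epithelia, carried 56 regions, all higher in set 2, and read 5563, 5691 and 5363 against 10856, 11718 and 11139 (log2 -1.02, -1.13 to -0.93). Abi3bp, a matrix protein, read 430, 479 and 442 against 919, 1007 and 953 (log2 -1.09). Phldb2, a protein of cell adhesions, was higher in set 1 on low sums (250, 257 and 203 against 74, 156 and 179, log2 0.80, 0.18 to 1.80). The matrix proteases Adamts1 and Adamts5, which fibroblasts can express, carried none. Of 24 hair keratin-associated protein genes, 1 carried a region (Krtap11-1, 9, 9 and 15 against 28, 34 and 34). Of 4 claudin-list genes, Cldn14 was the carrier.

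Other genes with high sums or ratios followed the lean. B3galt5 read 8323, 8104 and 7700 against 13262, 14626 and 13023 (log2 -0.76, -0.93 to -0.65), with 45 of 45 regions higher in set 2. Sidt1, a transmembrane protein of the SID1 family, read 5655, 5808 and 5338 against 9227, 9241 and 8979 (log2 -0.71), with 46 of 47. Slc9c1, a sperm sodium/proton exchanger, read 5797, 5596 and 5434 against 7887, 8271 and 7990 (log2 -0.52), with 37 of 40. Library sums were separated in all 3. Itgb2l, an integrin chain, Myh15, a myosin heavy chain, Sh3bgr, an SH3-domain binding protein of muscle, St3gal6, a sialyltransferase, and Cyyr1, a small membrane protein, had log2 ratios from -1.20 (Itgb2l) to -1.11 (Cyyr1) and separated sums. Against the lean stood Clic6, an intracellular chloride channel protein, with 10 of 10 regions higher in set 1 and sums of 582, 584 and 613 against 361, 299 and 335 (log2 0.84, 0.69 to 1.04). Tmprss7, a serine protease, had 15 of 20 regions higher in set 1 and read 1258, 1401 and 1340 against 993, 1130 and 980 (log2 0.37, 0.15 to 0.52), which was 0.17 after scaling, with sets that then overlapped.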

How the data were processed

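H3K27me3 in mouse 3T3 fibroblasts was measured by sequencing of immunoprecipitated chromatin, with antibody clone C36B11 per the labels' protocols. The authors deposited 1 headerless table of regions for the whole series, whose score values per library are whole numbers that look like rescaled and rounded read counts; they were not treated as counts. The tools named in the submitters' processing notes are CASAVA, Trimmomatic 0.36 and BWA 0.7.17, and the build is GRCm38. No source used here gives the program that called the regions, its scaling or whether inputs entered. The p of the table was not used.

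From the values, sums, directions and log2 ratios were computed in Python 3.11.15 with pandas 2.3.3, with a pseudocount of 1 for single regions and none for sums. Shares of regions have 95% Wilson intervals where printed. Library order is not given, so values are listed per library, with no mean and SD and no test. Gene spans came from RefSeq (GRCm38.p6), in which 20347 named genes were kept, and a gene carried a region within 2 kb of its span. The members, gene lists and stretches were chosen with earlier results of these data known.

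Named regions were, per direction, the 8 with the highest summed value and the 5 with the largest ratio among those with a sum of at least 200. Named genes were the 10 with the highest sum, up to 8 per direction with the largest ratio among those with 5 or more regions, and the 3 highest of each list. Not every region so selected is printed, and single regions of named genes, the leading regions plotted for 14 genes, list members beyond the 3 highest and runs were added after the values were seen. Direction, separation and overlap steps recovered simulated data with known answers. Alternatives covered scaling, subsets of regions, edges, window sizes, flanks and leaving out each library. Chromosome 16 regions starting below 40 Mb, and X and Y, served only for comparison.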

Additional observations from a re-analysis of the deposited data

How the results depend on the processing

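Scaling the libraries to equal sums over all listed regions moved the log2 ratio of the segment from -0.65 to -0.84, and scaling over the other autosomes to -0.85. Counting base pairs put 89.5% on the set 2 side. Keeping separated regions only gave 88.4% and left 294 regions against the lean. Keeping regions with an absolute log2 ratio of at least 1 gave 90.7%, a ratio of -1.15, 1421 separated regions higher in set 2 and 5 windows against the lean. With windows of 0.5 Mb, 7 windows with 5 or more regions went against it. Leaving out 96 to 98 Mb gave 82.7% and a ratio of -0.52, and leaving out 91 to 96 Mb gave 93.9% and -0.83, both settings chosen after seeing the data. The scaled ratios differ by the log2 shift of 0.19 to 0.20 between the sets. For the other settings that moved a value the cause was not tested. Direction did not change in any alternative run for the segment. Leaving out each library gave 86.6% to 86.8% higher in set 2, a ratio of -0.67 to -0.62, 2379 to 2504 separated regions and 2 windows against the lean. A lower edge at 35 or 45 Mb gave 87.3% and 87.1%. Genes of the lists with a region numbered 31, against 27 with the span alone and 39 with a flank of 5 kb. No paired analysis was possible because the columns carry no replicate numbers. Depth is unknown, so precision rests on the spread between 3 libraries a set.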

Other observations

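Further down chromosome 16, below the 4 Mb that lean like the segment, the direction was the opposite. Of the 999 regions of chromosome 16 from 30 to 36 Mb, 845 (84.6%) were higher in set 1, with library sums of 189878, 188636 and 182423 (set 1) against 148197, 150252 and 148625 (set 2). From 36 to 40 Mb, 559 of 598 were higher in set 2, with sums of 42758, 44046 and 41128 against 66453, 69026 and 64897. The log2 ratio was 0.33 (0.28 to 0.36) in the first stretch and -0.65 (-0.75 to -0.56) in the second, and the sets did not overlap in either. The second stretch and the segment above 40 Mb thus had the same ratio to 2 decimals. Both stretches were marked off after the values were seen.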
